A study of Drosophila melanogaster with 5 samples.

Results

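RNA levels in whole testes at 32 h post heat shock (PHS) were compared with those at 8 h PHS, within heat-shocked males only. The genes compared were the 6729 of 14819 with at least 10 CPM in at least one of the 2 libraries. CPM are the reads of a gene scaled by the authors' normalization to a library total of about 1000000, and the change of a gene is its log2(CPM + 1) at 32 h PHS minus that at 8 h PHS. The males were hs-bam; bam[1]/bam[86], which lack functional endogenous bam in the germ line and carry a bam gene under a heat shock promoter. They were reared at 25 °C, and groups PHS were given 30 min at 37 °C as mid- and late-stage pupae. PolyA RNA came from about 100 pairs of whole testes per library, with seminal vesicles included. The series has 1 library without heat shock (no HS) and 1 for each of 8, 16, 24 and 32 h PHS. With single libraries, the differences cannot be checked against replicates and no test was run. All libraries share the bam alleles and the transgene, and 0 libraries from heat-shocked males without hs-bam were analysed here, so that the end of the heat response and the progress of differentiation cannot be told apart.

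In the Drosophila testis, spermatogonia divide by mitosis within a somatic envelope until Bam protein accumulates. They then pass through a last S phase and become spermatocytes, which spend a long G2 phase transcribing genes for meiosis and for the later shaping of sperm. Much of that transcription depends on a testis form of the MuvB/dREAM complex (tMAC) and on testis relatives of general TBP-associated factors (testis TAFs), while RNA-binding proteins hold some of the resulting mRNAs untranslated until the meiotic divisions. Without Bam function, spermatogonia keep dividing, and the pulse of Bam from the transgene starts a wave of differentiation.

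Between 32 h and 8 h PHS, 78 genes were higher at 32 h by more than 2-fold (1.16% of the 6729) and 147 were lower (2.18%). The other 6504 genes were within 2-fold. The median change of all 6729 was -0.02, with quartiles of -0.24 and 0.18. Among the called genes, the increases were larger than the decreases. Past 8-fold there were 24 higher and 0 lower genes, and past 4-fold there were 31 higher and 6 lower. The largest increases were those of genes under 10 CPM at 8 h PHS. Such genes entered only through their 32 h level, so the contrast in size rests partly on the filter. The 78 higher genes began low, with a median of 36.1 CPM at 32 h against 7.67 CPM at 8 h PHS, and 46 of them passed the filter only at 32 h. The 147 lower genes had a median of 20.7 CPM at 32 h against 59.7 CPM at 8 h PHS, and 117 of them passed the filter at both times. The median of all 6729 at 8 h PHS was 62.4 CPM. A lower gene needs at least 10 CPM at 8 h PHS to enter the comparison, so its starting level is partly set by the filter. As shares of all reads, the higher genes took 0.638% of the library at 32 h and 0.168% at 8 h PHS. The lower genes took 0.740% at 32 h and 1.85% at 8 h PHS.

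**Figure D1:**
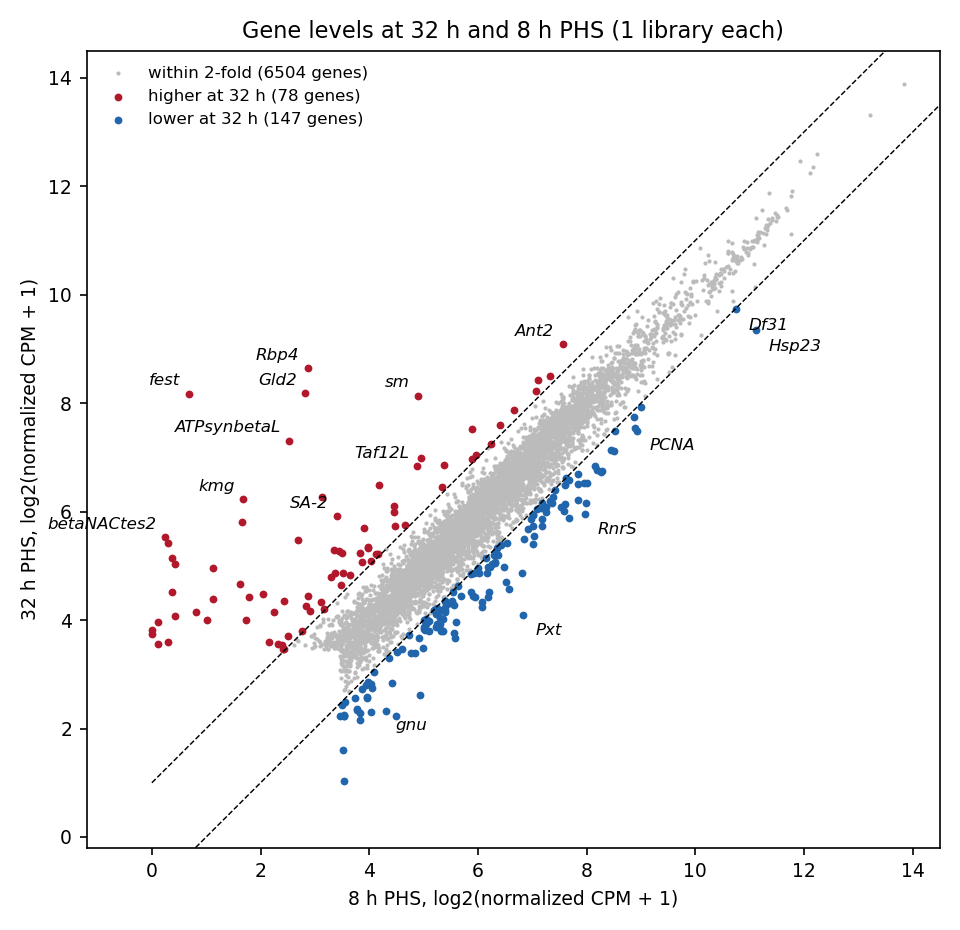
Each point is 1 gene, with its level at 8 h PHS on the horizontal axis and at 32 h PHS on the vertical axis, both as log2(normalized CPM + 1), and dashed lines mark 2-fold. The 78 higher genes (red) fan out from low levels at 8 h PHS, while the 147 lower genes (blue) lie just under the lower line over a wide range of levels.

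The libraries held 23114650 reads on features at 32 h and 26534001 at 8 h PHS, and from 10356663 to 28766676 over all 5. A count of 0 reads allows a level of up to 0.127 CPM at 32 h and 0.112 CPM at 8 h PHS (3 reads). Intervals given below are 95% Clopper-Pearson intervals of the log2 ratio of CPM from the reads, without the added 1 CPM. They compare these libraries and cover counting error only. The interval lay wholly past 2-fold for 68 of the 78 higher and 110 of the 147 lower genes. The filter of 10 CPM fell between CG12811, just inside with 7.43 CPM at 32 h and 10.004 CPM at 8 h PHS, and CG31777, just outside with 9.04 CPM at 32 h and 9.97 CPM at 8 h PHS. Germ line RNA was present at both times, as shown by the RNA helicase gene vas with 254 CPM at 32 h and 316 CPM at 8 h PHS. Of 12 muscle genes of the testis sheath, 12 were above 0 (47.7% of all genes compared) and 0 were past 2-fold, with a median change of 0.19 and summed levels of 1982 CPM at 32 h and 1668 CPM at 8 h PHS. The 7 cyst and hub genes past the filter had a median change of 0.06, with 0 past 2-fold. Of all genes compared, 96.7% were within 2-fold. Genes of the accessory gland (8), which produces seminal fluid, were all under 1 CPM, with summed levels of 0.591 CPM at 32 h and 0.411 CPM at 8 h PHS. Summed levels were 390 CPM at 32 h and 379 CPM at 8 h PHS for 6 genes of the ejaculatory duct and bulb, 64.0 CPM at 32 h and 60.3 CPM at 8 h PHS for 10 of the fat body, 70.4 CPM at 32 h and 70.1 CPM at 8 h PHS for 7 of the midgut, and 222 CPM at 32 h and 207 CPM at 8 h PHS for 5 of blood cells, with 0 of the genes past the filter beyond 2-fold in each list. The part of these other cell types in the results was not tested. In bulk RNA of this kind, fewer cells of a type and less RNA per cell cannot be told apart.

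On the log2(CPM + 1) scale, the 3 largest increases were those of genes that control translation in spermatocytes. Rbp4 and fest encode partners in the repression of Cyclin B translation, and Gld2 encodes a cytoplasmic poly(A) polymerase of the male germ line. By the ratio of CPM the order differs. For example dbf, with 0.224 CPM at 8 h and 42.1 CPM at 32 h PHS, rose more than Rbp4 and Gld2. Rbp4 (FBgn0010258, chromosome 3R, 13654556 to 13656394 on BDGP6.54) had 4.19 CPM with no HS and 6.31, 4.93, 133 and 400 CPM at 8, 16, 24 and 32 h PHS. Its change was 5.78, with an interval of 5.77 to 6.21 for the log2 ratio. Its first 3 libraries were alike and low, and its level grew at both later times. fest (FBgn0034435, chromosome 2R, 19341809 to 19345754) had 0.292 CPM with no HS and 0.597, 0.712, 26.5 and 289 CPM at 8, 16, 24 and 32 h PHS, a change of 7.50, the largest of the 6729. It had 16 reads at 8 h PHS, and the interval of its log2 ratio was 8.22 to 9.72. Gld2 (chromosome 3R, 22211824 to 22217415) had 2.34 CPM with no HS and 6.05, 3.70, 171 and 290 CPM at 8, 16, 24 and 32 h PHS, a change of 5.37. At 24 h PHS it had already reached 59.1% of its 32 h level, where Rbp4 had reached 33.2% and fest 9.18%.

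Of the 10 genes listed for meiotic translation control, 9 passed the filter, 4 were higher and 0 lower, with a median change of 0.80. Past 2-fold, 1.16% of all genes compared were higher and 2.18% lower, which is the background for each list. The fourth was orb2, a CPEB-family RNA-binding protein gene, with 39.5 CPM at 32 h against 14.7 CPM at 8 h PHS. Syp, the gene of an hnRNP-family protein, had 122 CPM at 32 h and 69.8 CPM at 8 h PHS and stayed within 2-fold. bol, which promotes translation of the meiotic Cdc25 phosphatase Twine, had 19.2 CPM at 32 h and 20.5 CPM at 8 h PHS. twe, the Twine gene itself, had 21.9 CPM at 32 h and 44.6 CPM at 8 h PHS, a change of -0.99 that lay just within 2-fold. The abundant testis translation factor gene eIF4G2 had 1215 CPM at 32 h and 992 CPM at 8 h PHS. With only genes of at least 10 CPM at both times, which leaves out Rbp4, fest and Gld2, the median of this list was 0.10.

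Transcription regulators of spermatocytes formed a further group. Of 8 genes listed for tMAC and its partner Kumgang, 7 passed the filter. Of the 7, 4 were higher (1.16% of all genes compared) and 0 lower, with a median change of 1.06. kmg, which encodes a zinc finger protein that keeps tMAC from activating the wrong promoters, had 2.63 CPM with no HS and 2.20, 3.56, 51.5 and 73.8 CPM at 8, 16, 24 and 32 h PHS, a change of 4.55. Most of that increase lay between 16 and 24 h PHS. The tMAC subunit genes tomb and topi and the homeodomain gene vis were higher by less, with changes of 1.09, 1.06 and 1.21. With a pseudocount of 5 CPM tomb and topi came to 0.98 and 0.91, which left 2 higher genes in this list, and against the mean of 8 h PHS and no HS tomb came to 0.93. topi had 18.3 CPM with no HS and 16.9, 8.35, 5.43 and 36.2 CPM at 8, 16, 24 and 32 h PHS, so that it was lowest at 24 h and highest at 32 h PHS. vis and its neighbour paralog achi are similar in sequence, so that their reads may be divided with error, and achi had a change of 0.81. aly and mip40, also of this complex, had changes of 0.28 and 0.20. comr stayed under the filter, with 7.26 CPM at 32 h and 1 read at 8 h PHS.

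Of the 5 testis TAF genes, nht and Taf12L were higher. nht, the Taf4 relative, had 2.73 CPM with no HS and 1.19, 0.380, 5.85 and 30.2 CPM at 8, 16, 24 and 32 h PHS, a change of 3.83. Taf12L, the Taf12 relative, had 26.9 CPM with no HS and 28.5, 25.7, 48.3 and 113 CPM at 8, 16, 24 and 32 h PHS, a change of 1.95. Both were highest at 32 h PHS, but Taf12L had over 25 CPM in each library. mia, the Taf6 relative, had 23.4 CPM at 32 h and 36.1 CPM at 8 h PHS and stayed within 2-fold. can and sa, the relatives of Taf5 and Taf8, remained under 1 CPM at both times.

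The testis bromodomain family was grouped after its values had been seen. Its genes tbrd-1 and tbrd-3 had changes of 2.43 and 3.00, with 21.3 and 15.1 CPM at 32 h against 3.14 and 1.01 CPM at 8 h PHS. tbrd-2 had 7.09 CPM at 32 h and 1 read at 8 h PHS and stayed under the filter. The nuclear genes LamC, an A-type lamin, and Parp, the poly(ADP-ribose) polymerase, had changes of 1.08 and 1.25, and LamC was within 2-fold with either averaged baseline. LamC had 69.5 CPM with no HS and 61.3, 79.2, 137 and 131 CPM at 8, 16, 24 and 32 h PHS, so that its level at 24 h was already that of 32 h PHS.

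Among 11 meiotic chromosome genes, SA-2 was higher and sunn lower, and the median change was -0.32. SA-2, also called snm, encodes a cohesin relative that holds homologous chromosomes together in male meiosis. It had 6.52 CPM with no HS and 9.56, 14, 55.5 and 59.2 CPM at 8, 16, 24 and 32 h PHS, a change of 2.51, and 93.8% of the 32 h level was reached by 24 h PHS. sunn, which is needed for the cohesion of sister centromeres, had 13.0 CPM at 32 h against 33.3 CPM at 8 h PHS. Its cohesion partners ord and solo had changes of -0.70 and -0.35.

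**Figure D2:**
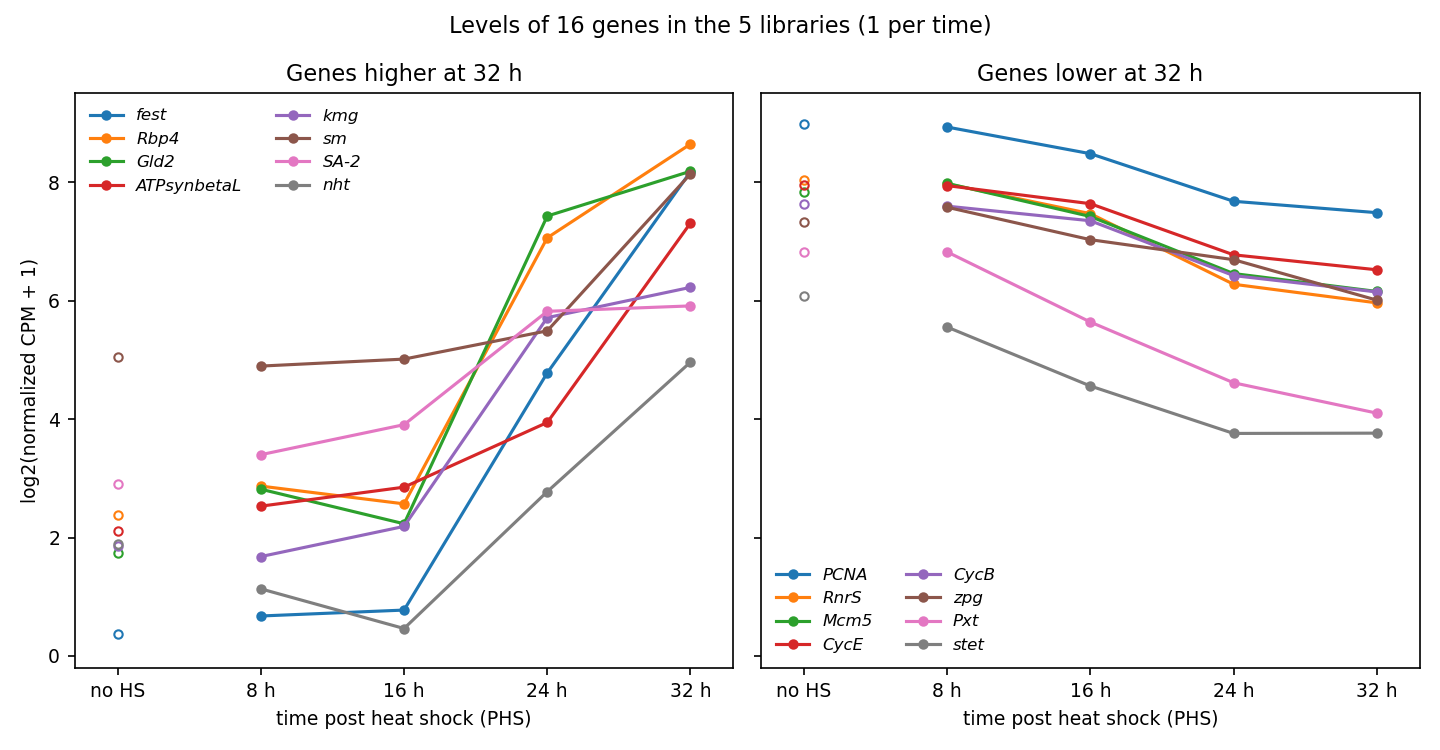
Each line follows 1 gene through the single libraries at 8, 16, 24 and 32 h PHS, with the open circle giving no HS, on a vertical axis of log2(normalized CPM + 1). The 8 higher genes (left) stay near their 8 h level at 16 h PHS and climb at 24 or 32 h, while the 8 lower genes (right) already lie below their 8 h level at 16 h PHS.

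Several of the higher genes were testis relatives of proteins used in most cells. The nascent polypeptide-associated complex binds new proteins at the ribosome exit. The testis family of its beta subunit (betaNACtes) had 5 members past the filter. Of these, 3 were higher (1.16% of all genes compared) and 0 lower, with a median change of 2.63. betaNACtes2 had 0.292 CPM with no HS and 0.187, 0.0949, 14.2 and 45.3 CPM at 8, 16, 24 and 32 h PHS, a change of 5.28. betaNACtes4 and betaNACtes1 had 76.3 and 20.4 CPM at 32 h, against 7.73 and 2.46 CPM at 8 h PHS. betaNACtes3 had 21.4 CPM at 32 h and 21.0 CPM at 8 h PHS, and betaNACtes6 had 38.5 CPM at 32 h and 27.5 CPM at 8 h PHS, so that the family did not move as 1 unit. These genes are close relatives clustered on the X chromosome, and reads that fit several of them were mostly dropped by the authors' mapping quality filter, which leaves their separate levels uncertain. With genes of at least 10 CPM at both times, only the last 2 named remained and the family's median was 0.25.

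ATPsynbetaL, a testis relative of the beta subunit of the mitochondrial ATP synthase, had 3.31 CPM with no HS and 4.78, 6.22, 14.4 and 158 CPM at 8, 16, 24 and 32 h PHS, a change of 4.78. It was low at 24 h PHS, with 9.11% of the 32 h level. Ant2, which encodes a mitochondrial ADP/ATP carrier, had 121 CPM with no HS and 188, 399, 539 and 545 CPM at 8, 16, 24 and 32 h PHS, a change of 1.53. It was the most abundant of the 78 at 32 h, and unlike most of them it was already high at 16 h PHS. Against the mean of 8 and 16 h PHS it was within 2-fold, with 0.89. Rpt6R, a testis relative of a proteasome ATPase, had 24.2 CPM at 32 h against 2.09 CPM at 8 h PHS, whereas Rpt3R and Rpt4R had changes of 0.74 and 0.34, and 8 of the 11 testis proteasome genes stayed under the filter. Pp1-13C, a catalytic subunit gene of protein phosphatase 1, had 34.4 CPM at 32 h against 0.299 CPM at 8 h PHS, a change of 4.77. wuc, a relative of lin-52 of the MuvB complex, had 21.8 CPM at 32 h against 0.299 CPM at 8 h PHS, a change of 4.14.

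Related genes, called counterparts here, were set beside higher genes in 12 pairs chosen after the values had been seen. Not every counterpart is a general form, since orb, paired with orb2, is listed below with egg and oocyte genes. All 11 counterparts stayed within 2-fold, as did 96.7% of all genes compared, with changes of -0.80 to 0.19. Their partners had been taken from the 78 because they were higher, so the contrast within a pair is a description. Per kb of exonic bases, the level of ATPsynbetaL was 29.9% of that of ATPsynbeta at 32 h and 0.924% at 8 h PHS. nht was at 66.1% of the level of Taf4 per kb at 32 h and at 2.29% at 8 h PHS. SA-2 was at 95.1% of SA at 32 h and at 8.78% at 8 h PHS. For 3 pairs the paralog was above the counterpart per kb at 32 h and below it at 8 h PHS. Taf12L was at 418% of Taf12 at 32 h and at 83.2% at 8 h PHS, wuc was at 249% of lin-52 at 32 h and at 1.96% at 8 h PHS, and Ant2 was at 206% of sesB at 32 h and at 54.0% at 8 h PHS. In contrast, betaNACtes2 was at 4.86% of bic and Pp1-13C at 5.30% of Pp1-87B at 32 h, against 0.0194% and 0.0473% at 8 h PHS. sesB and Ant2 overlap in the annotation, with 9.05% of the exonic bases of Ant2 shared with another gene. SA and lin-52 had the lowest changes among the counterparts, -0.80 and -0.76.

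The remaining large increases included genes with no assigned role. The 20 largest increases were those of fest, Rbp4, Gld2, betaNACtes2, dbf, ATPsynbetaL, Pp1-13C, CG7213, kmg, CG34384, wuc, CG43052, nht, CG15710, CG3491, CG44261, CG5111, Ppm1, OdsH and CG10887, with changes of 7.50 down to 3.26. Of the 78 higher genes, 32 (41.0%) carried only a CG number, compared with 36 of the 147 lower genes (24.5%) and 30.2% of all genes compared. dbf had 42.1 CPM at 32 h against 0.224 CPM at 8 h PHS, and 1.68 CPM at 24 h PHS. The homeobox gene OdsH had 11.0 CPM at 32 h against 0.224 CPM at 8 h PHS. sm, which encodes an RNA-binding protein related to hnRNP L, had 32.2 CPM with no HS and 28.8, 31.3, 44.0 and 281 CPM at 8, 16, 24 and 32 h PHS, so that nearly all of its change of 3.25 lay after 24 h PHS.

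Among the genes with the fewest reads at 8 h PHS, CG15710 had 312 reads at 32 h and 0 at 8 h PHS, and was at least 118-fold higher at 32 h against the level of 3 reads in the 8 h library. CG3491 had 295 reads at 32 h and 0 at 8 h PHS, and was at least 111-fold higher by the same bound. CG43052 and CG5111 had 2 reads each at 8 h PHS, with intervals of the log2 ratio of 5.75 to 10.66 and 5.30 to 10.23. In all, 13 of the 78 genes were under 1 CPM at 8 h PHS. For such genes the change on the log2(CPM + 1) scale is smaller than the log2 ratio of CPM.

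Later products of the sperm program were scarce. Of 19 spermatid and sperm genes measured, ATPsynbetaL alone passed the filter, and 13 were under 1 CPM at 32 h PHS. With no filter, 4 of the 19 were higher past 2-fold and 0 lower, against 179 higher and 185 lower of all 14819 genes. The don juan gene dj had 0.0844 CPM at 32 h and 0 reads at 8 h PHS, and the protamine-like gene ProtA had 0.127 CPM at 32 h and 0 reads at 8 h PHS. The 7 Y-linked fertility genes measured were all under 1 CPM at both times, with summed levels of 0.296 CPM at 32 h and 0.224 CPM at 8 h PHS.

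The list with the most lower genes was that of DNA replication. Of its 36 genes, 17 were lower (2.18% of all genes compared) and 0 higher, with a median change of -0.95. All 36 lay below 0, where 52.3% of all genes compared lay below 0. PCNA, the sliding clamp of the replication fork, had 504 CPM with no HS and 488, 357, 204 and 178 CPM at 8, 16, 24 and 32 h PHS, a change of -1.45. Mcm5, of the replicative helicase, had 227 CPM with no HS and 252, 171, 87.0 and 70.3 CPM at 8, 16, 24 and 32 h PHS, a change of -1.83. For both, the levels stepped down at every time PHS and most of the decrease was complete at 24 h. The helicase subunit genes Mcm2, Mcm3, Mcm6 and dpa had changes of -1.64, -1.31, -1.54 and -1.53. Mcm7 had a change of -1.92, but 81.7% of its exonic bases overlap another gene, and its value is uncertain. dup, the licensing factor Cdt1, had 58.2 CPM at 32 h against 203 CPM at 8 h PHS, while geminin, the gene of its inhibitor, had 150 CPM at 32 h and 293 CPM at 8 h PHS and stayed within 2-fold. The GINS subunit genes Psf1, Psf2 and Psf3 had the smallest decreases of the list, with changes of -0.39, -0.40 and -0.28, while Sld5, of the same complex, was just past 2-fold with 17.2 CPM at 32 h against 35.5 CPM at 8 h PHS, a call that was lost with a pseudocount of 5 CPM, under each of the 3 rescalings and with either averaged baseline.

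Among genes for the supply of deoxynucleotides, the 4 reported here, grouped after their values had been seen and overlapping the replication list in 2, were lower, with a median change of -1.77. RnrS, the small subunit of ribonucleotide reductase, had 262 CPM with no HS and 251, 176, 76.6 and 61.4 CPM at 8, 16, 24 and 32 h PHS, a change of -2.01 with an interval of -2.11 to -1.95. The large subunit gene RnrL had a change of -1.43. Ts, which encodes thymidylate synthase, and dnk, which encodes deoxynucleoside kinase, had 28.2 and 41.1 CPM at 32 h, against 111 and 127 CPM at 8 h PHS.

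The 11 regulators of G1 and S phase were also grouped after the values had been seen. Of these, 5 were lower (2.18% of all genes compared) and 0 higher, with a median change of -0.96. CycE, the S phase cyclin and also a member of the replication list, had 248 CPM with no HS and 245, 198, 109 and 90.9 CPM at 8, 16, 24 and 32 h PHS, a change of -1.42. Cdk4, which encodes the kinase partner of CycD in G1, and Rbf2, of the retinoblastoma family, had changes of -1.37 and -1.17. Cdk2 and Myc had changes of -1.16 each, and share 43.9% and 61.2% of their exonic bases with overlapping genes. Against the mean of 8 and 16 h PHS Cdk2 and Rbf2 were within 2-fold, with -0.99 and -0.97, which left 3 lower. E2f1, the activator of S phase genes, had 176 CPM at 32 h and 279 CPM at 8 h PHS and stayed within 2-fold, as did Rbf, with 161 CPM at 32 h and 196 CPM at 8 h PHS.

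Mitotic genes were mostly within 2-fold. Of 33 past the filter, 8 were lower (2.18% of all genes compared) and 0 higher, and the median change was -0.60. The 8 became 5 with a pseudocount of 5 CPM and 4 against the mean of 8 and 16 h PHS. CycB, the mitotic cyclin gene whose translation Rbp4 and Fest repress in spermatocytes, had 199 CPM with no HS and 193, 162, 84.9 and 70.0 CPM at 8, 16, 24 and 32 h PHS, a change of -1.45. The other genes that fell past 2-fold were cid, the centromeric histone, Cap-G of condensin, borr of the chromosomal passenger complex, tum of the central spindle, the kinase gene aurA, the Cdc25 phosphatase gene stg and fzy, an activator of the anaphase promoting complex. Cdk1 and polo, whose products act in meiosis as well, had changes of -0.84 and -0.50, and Klp10A had the highest change of the list, 0.31. In the centriole list, 14 genes passed the filter. Of these, ana2 and spd-2 were lower (2.18% of all genes compared) and 0 higher, with a median change of -0.42. Both came within 2-fold with a pseudocount of 5 CPM and against the mean of 8 and 16 h PHS, which left 0 lower.

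Ribosome biogenesis genes lay on the same side but mostly within 2-fold. All 22 were below 0, against 52.3% of all genes compared. NHP2 and Myc were lower past 2-fold, against 2.18% of all, and the median change was -0.67. Against the mean of 8 h PHS and no HS Myc was within 2-fold, with -0.86. NHP2, of the box H/ACA snoRNP, had 255 CPM with no HS and 291, 254, 183 and 108 CPM at 8, 16, 24 and 32 h PHS. Fib and Nop56 had changes of -0.85 and -0.93. In contrast, 88 cytoplasmic ribosomal protein genes had a median change of -0.10 and 71 mitochondrial ribosomal protein genes of 0.06. In each list 0 were past 2-fold, where 96.7% of all genes compared were within it. Of 60 oxidative phosphorylation genes past the filter, ATPsynbetaL was past 2-fold and the median was 0.20.

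**Figure D3:**
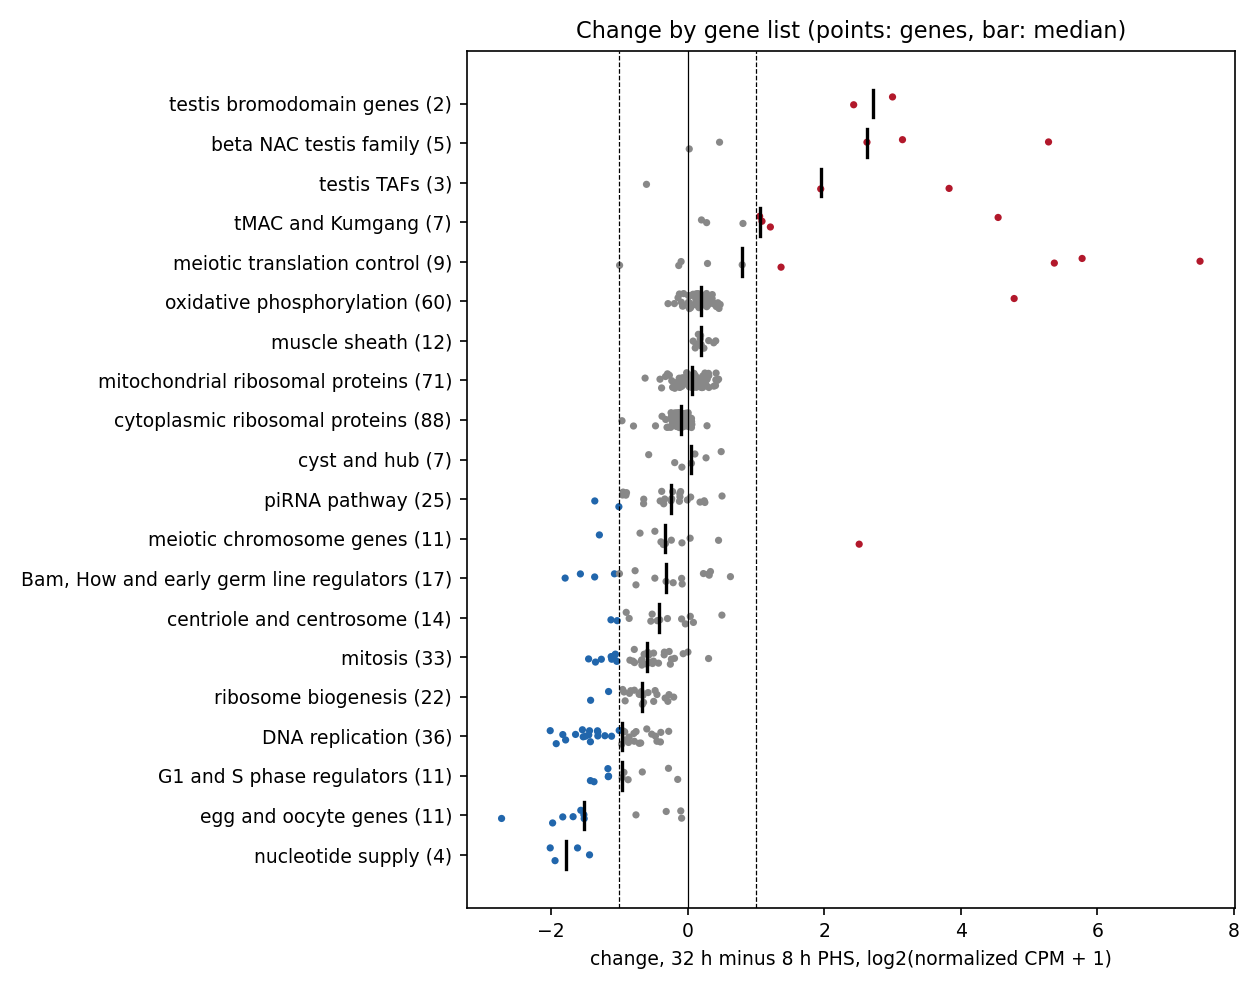
Each point is 1 gene of a list, placed by its change from 32 h minus 8 h PHS in log2(normalized CPM + 1), with the number of genes past the filter in brackets, a black bar at the median and dashed lines at 2-fold, past which points are red (higher) or blue (lower). Lists of spermatocyte regulators reach to the right with wide spreads. The replication, nucleotide supply, G1 and S phase, ribosome biogenesis, and egg and oocyte lists lie wholly to the left of 0.

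A group of 15 genes best known from eggs and oocytes was formed after their values had been seen, so its counts are a description. Of the 11 past the filter, 7 were lower (2.18% of all genes compared) and 0 higher, with a median change of -1.52. With at least 10 CPM at both times, 5 of 9 were lower. Pxt, a peroxidase that acts in prostaglandin signalling in the ovary, had the largest decrease of the 6729 genes on the log2(CPM + 1) scale. It had 112 CPM with no HS and 112, 48.9, 23.5 and 16.2 CPM at 8, 16, 24 and 32 h PHS, a change of -2.72 with an interval of -2.95 to -2.64. gnu, which activates the PNG kinase of the egg, and dhd, a maternal thioredoxin, had 4.01 and 24.9 CPM at 32 h, against 18.7 and 90.9 CPM at 8 h PHS. alphaTub67C, the maternal alpha-tubulin, yl, the yolk receptor, fs(1)N and the synaptonemal complex gene c(3)G had changes of -1.68, -1.51, -1.52 and -1.56. By contrast, png, ovo and orb had changes of -0.10, -0.09 and -0.31. gnu and NHP2 are neighbours, 211 bases apart on chromosome 3L, and both were lower.

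Of 10 general germ line genes, bam, zpg and piwi were lower (2.18% of all genes compared) and 0 higher, with a median change of -0.57. Regulators of early germ cells were divided. Of 17 past the filter, 4 were lower (2.18% of all genes compared) and 0 higher, with a median change of -0.31. bam had 64.8 CPM with no HS and 128, 90.5, 74.2 and 60.5 CPM at 8, 16, 24 and 32 h PHS, a change of -1.07 with an interval of -1.17 to -0.99, and the reads of the transgene and of the mutant endogenous gene are counted together. It was within 2-fold against the mean of 8 h PHS and no HS, with -0.66, and against the mean of 8 and 16 h PHS, with -0.84. how, which encodes an RNA-binding protein of the STAR family, had 226 CPM with no HS and 106, 113, 122 and 134 CPM at 8, 16, 24 and 32 h PHS. Its change of 0.34 was within 2-fold, and its level at 32 h PHS lay between those at 8 h PHS and with no HS. With 8 h PHS averaged with no HS as the baseline, the median of the list was -0.63.

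stet, a protease that releases EGF-family ligands from germ cells, had 66.9 CPM with no HS and 46.0, 22.6, 12.5 and 12.6 CPM at 8, 16, 24 and 32 h PHS, a change of -1.79. zpg, the germ line gap junction protein, had 161 CPM with no HS and 190, 130, 103 and 63.5 CPM at 8, 16, 24 and 32 h PHS. Phf7, a chromatin reader of male germ cells, had a change of -1.36. Of the partners of Bam, bgcn had 232 CPM at 32 h and 197 CPM at 8 h PHS, and tut had 12.4 CPM at 32 h and 25.7 CPM at 8 h PHS, a change of -0.997 that was just short of 2-fold. mei-P26, which encodes a TRIM-NHL protein, had 227 CPM at 32 h and 182 CPM at 8 h PHS. nos, pum and shg had changes of -0.48, -0.21 and -0.08. All 9 CCR4-NOT deadenylase genes were within 2-fold, as were 96.7% of all genes compared. Rcd-1, the Caf40 subunit, had 365 CPM at 32 h and 348 CPM at 8 h PHS.

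Of 25 piRNA pathway genes, piwi and shu were lower (2.18% of all genes compared) and 0 were higher, with a median of -0.24. shu lay just past 2-fold and was no longer so with a pseudocount of 5 CPM, under each of the 3 rescalings and against the mean of 8 and 16 h PHS, which left piwi. piwi had 150 CPM with no HS and 115, 69.2, 53.0 and 44.1 CPM at 8, 16, 24 and 32 h PHS, whereas aub, which encodes another Piwi protein, had 381 CPM at 32 h and 335 CPM at 8 h PHS. Of 6 HP1 relatives, HP1D3csd and Oxp were lower (2.18% of all genes compared), with changes of -2.01 and -1.63. The others had changes of -0.64 (HP1b) to 0.02 (HP1c). Df31, which encodes a chromatin-associated protein, was the most abundant lower gene at 32 h PHS. It had 1733 CPM with no HS and 1730, 1771, 1493 and 851 CPM at 8, 16, 24 and 32 h PHS, so that its change of -1.02 came mostly after 24 h PHS, and it was within 2-fold when rescaled by the upper quartile. Of 12 genes for histone variants and chromatin and of 9 fusome and ring canal genes 0 were past 2-fold, with medians of -0.38 and -0.12. Within 2-fold lay 96.7% of all genes compared. Against the mean of 8 h PHS and no HS, 2 of the 12 were lower.

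A smaller set of lower genes had been raised at 8 h PHS relative to no HS. Hsp23, a small heat shock protein gene, had 424 CPM with no HS and 2229, 682, 643 and 652 CPM at 8, 16, 24 and 32 h PHS, a change of -1.77. Hsp68 had 120 CPM with no HS and 361, 192, 128 and 138 CPM at 8, 16, 24 and 32 h PHS, a change of -1.38. Of the 10 heat shock genes past the filter these were the 2 that fell past 2-fold, and the median was -0.07. Against the mean of 8 h PHS and no HS, Hsp68 was within 2-fold with -0.80. Hsp83 had 5677 CPM at 32 h and 3877 CPM at 8 h PHS, and stayed within 2-fold. The immune peptide genes BomS3 and Drs had 2.03 and 9.46 CPM at 32 h, against 10.5 and 26.1 CPM at 8 h PHS, and the metallothionein gene MtnD had 3.72 CPM at 32 h and 10.6 CPM at 8 h PHS. Drs came within 2-fold against the mean of 8 h PHS and no HS, with -0.92, and MtnD with a pseudocount of 5 CPM, with -0.84. CG4757 had 1.07 CPM with no HS and 10.5, 1.38, 2.10 and 1.06 CPM at 8, 16, 24 and 32 h PHS. All 6 of these genes had their highest level of the 5 libraries at 8 h PHS. The antisense gene asRNA:CR43481, which lies 762 bases from Hsp23, was higher at 32 h, with 17.5 CPM against 8.02 CPM at 8 h PHS, a call lost with a pseudocount of 5 CPM and against the mean of 8 h PHS and no HS. The strand setting of the count was not given in the sources used here, and 45.4% of its exonic bases are shared.

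The 20 largest decreases were those of Pxt, CG4757, CG14905, WRNexo, RnrS, HP1D3csd, gnu, Ts, Mcm7, BomS3, dhd, Mcm5, CG13690, stet, dup, Hsp23, RhoGAP100F, CG14545, Mov10 and alphaTub67C, with changes of -2.72 to -1.68. Besides those described, WRNexo, which encodes a relative of the exonuclease part of the Werner syndrome protein, had 3.67 CPM at 32 h against 21.5 CPM at 8 h PHS.

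The libraries between the compared times show when these levels were reached. Shares are taken of the 8 h or 32 h level, by which the genes were chosen, so they are a description. Of the 78 higher genes, 37 had at least 50% of their 32 h level at 24 h PHS, 20 had 25 to 50% and 21 had less than 25%, of which 13 had less than 10%. kmg, Gld2, SA-2, betaNACtes4, LamC, Parp and Ant2 were among the first of these sets. fest, ATPsynbetaL, nht, dbf, Pp1-13C, wuc, topi, tbrd-3, OdsH and sm were among the last. At 16 h PHS, only 8 of the 78 had 50% of their 32 h level. The 147 lower genes were already at a median of 72.0% of their 8 h level at 16 h PHS, at 48.7% at 24 h and at 40.5% at 32 h. Of these, 80 were at or under 50% at 24 h and 15 at 16 h PHS, among them Pxt, gnu, stet, Drep2 and Hsp23. Only 5 kept over 75% of their 8 h level at 24 h PHS, namely CG15877, Df31, Myc, r-l and lncRNA:CR44560.

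The 24 h and 16 h libraries were not used to choose the genes and give a separate measure. The 78 higher genes had a median change of 0.79 for 24 h minus 16 h PHS, with 73 of 78 above 0, against 50.3% of all genes compared. The 147 lower genes had a median of -0.54, with 142 of 147 below 0, against 49.6% of all genes compared. Past 2-fold between 24 h and 16 h PHS were 29 of the 78 (0.446% of all were higher) and 7 of the 147 (0.119% of all were lower). The median of all genes compared was 0.00. Higher genes that were lower at 24 h than at 16 h PHS were topi, CG2861, CG15270 and snRNA:U1:95Cc, the last a U1 snRNA gene whose near-identical copies make its level uncertain. Lower genes that were higher at 24 h than at 16 h PHS were CG4757, Drs, MtnD, O-fut1 and lncRNA:CR44560.

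**Figure D4:**
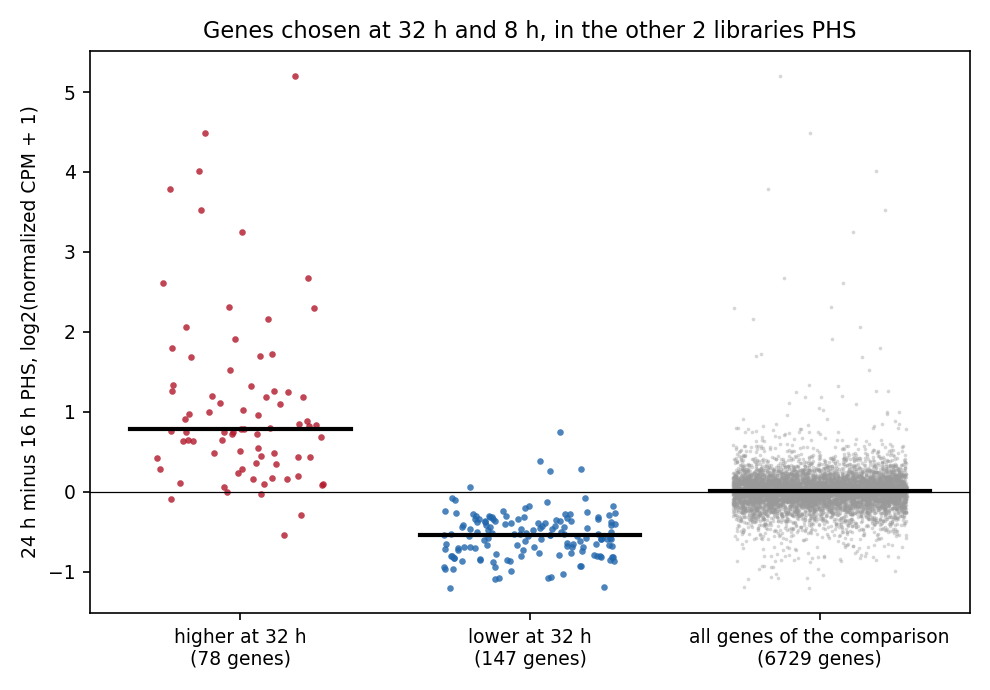
Each point is 1 gene, with its change from 24 h minus 16 h PHS in log2(normalized CPM + 1) on the vertical axis, for the 78 genes higher and the 147 genes lower at 32 h than at 8 h PHS and for all 6729 genes compared, with a black line at each median. The medians are 0.79 for the higher genes, -0.54 for the lower genes and 0.00 for all.

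By position on BDGP6.54, 17 of the 78 higher genes (21.8%) and 22 of the 147 lower genes (15%) were on the X chromosome, against 18.1% of all genes compared. On the Y and the fourth chromosome 0 of the called genes were found, where 0.0149% and 0.684% of all genes compared lie. Protein-coding genes made up 75 of the 78 and 146 of the 147, against 99.3% of all genes compared. Over 20% of the exonic bases were shared with another gene for 3 of the 78 and 8 of the 147, against 5.70% of all genes compared. The median exonic length was 1918 bases for higher genes, 2060 for lower genes and 2269 for all. Within 1000 bases of a lower gene, 8 of 145 neighbouring genes were also lower (5.52%, against 2.18% of all genes), each pair counted from both sides, in the pairs NHP2 and gnu, spd-2 and Apl, Mccc1 and Acf, and CG7637 and mms4. Of the 45 such neighbours of higher genes, 0 were higher, against 1.16% of all genes compared. On the X chromosome CG9123 (15340373 to 15342117), the splicing helicase gene Prp5 (15345169 to 15350021) and Pp1-13C (15359101 to 15361061) lie farther apart but close to each other, and all 3 were higher at 32 h PHS, a group noticed after the values had been seen. Prp5 was within 2-fold against the mean of 8 h PHS and no HS, with 0.61. Against the mean of 8 and 16 h PHS it was also within 2-fold, with 0.98.

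The number of higher genes depended on the filter, since 46 of the 78 passed it only at 32 h. It was 179 with no filter and 32 with at least 10 CPM at both times.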

How the data were processed

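PolyA RNA was sequenced from whole testes of hs-bam; bam[1]/bam[86] males, with 1 library per time. The authors trimmed the 100 bp paired reads with Trim Galore 0.4.3 (Phred score 20), aligned them to BDGP6.46 with STAR 2.5.3, kept proper pairs of mapping quality 10 or more with SAMtools 1.4.1, counted them per gene with featureCounts of Subread 1.5.0 and normalized with edgeR 3.34.0 under R 4.1.0. The strand setting was not given in the sources used here. The deposited values are log2(normalized CPM + 1). The plan had taken them for CPM, and the log2 was undone before any measure was computed. CPM were whole multiples of what 1 read is worth for 100% of values up to 1000 reads (tolerance 0.1 read), which gave the reads and depth of each library. Reads that fit several places are mostly lost to that mapping quality limit, and near-identical copies are uncertain.

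The change is the difference of log2(CPM + 1), with a pseudocount of 1 CPM, for genes with at least 10 CPM in at least one of the libraries, and called means past 1 (2-fold). This scale understates changes of low genes. A count model was not run, since 1 library per time gives no estimate of variation. The steps were tested on simulated data. The genes compared, the lists and the alternatives were chosen with earlier results of these data known. The lists come from general knowledge of the genes, and those said to be grouped after their values had been seen, with the pairs of paralogs and the neighbour counts, were added last. The genes named are the 20 largest changes each way, list members past 2-fold by preference and otherwise abundant ones, genes the study names, and those at the filter. Other genes, such as sm, Ant2, LamC, Parp, Df31, dj and ProtA, were chosen after their values were seen. Positions and exonic lengths were taken from Ensembl's BDGP6.54 annotation, which held 14797 of the 14819 gene IDs, and no coordinates were converted. The 2709 transposon features were kept apart. The alternatives were other pseudocounts, filters and thresholds, 3 rescalings (to equal totals, by the median ratio and by the upper quartile), and baselines that average 8 h PHS with no HS or with 16 h PHS. The planned promoter motif search was not run. A member of the nucleotide supply list is not reported here, so that its count covers only the genes described. Python 3.11.15, numpy 2.4.6, pandas 2.3.3, scipy 1.17.1 and matplotlib 3.10.9 were used.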

Additional observations from a re-analysis of the deposited data

Results flagged for a closer look

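The transposon features were outside the comparison of genes, and 8 of them had at least 10 CPM at 32 h or 8 h PHS. Of these 0 were higher and 1 was lower by more than 2-fold. The insertion 3S18{}RR48390 had 6.54 CPM at 32 h and 14.7 CPM at 8 h PHS, a change of -1.06, and 12.6 CPM with no HS, and it was singled out because it is a signal in data the report does not otherwise use. Insertions of this family are similar to each other, so that its own level is uncertain.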

How the results depend on the processing

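The number of genes higher at 32 h was 179 with no filter and with at least 1 CPM at either time, 32 with at least 10 CPM at both times, 208 at a threshold of 1.5-fold and 40 at 3-fold. The number of lower genes was 82 against the mean of 8 and 16 h PHS, 540 at 1.5-fold and 25 at 3-fold. Under the other alternatives both counts were within 1.5 times of 78 and 147. The median change for 24 h minus 16 h of the higher genes was 0.36 with no filter, with the 1 CPM filter and at 1.5-fold, and 1.22 at 3-fold. That of the lower genes was -0.35 at 1.5-fold and -0.86 at 3-fold. It was not computed against the mean of 8 and 16 h PHS, which would use the 16 h library. The share of higher genes among those called was 34.7%, against 49.2% with no filter, 21.5% with at least 10 CPM at both times, 48.1% against the mean of 8 and 16 h PHS, 27.8% at 1.5-fold and 61.5% at 3-fold. Across the alternatives other than thresholds, 56 of the 78 and 73 of the 147 genes stayed past 2-fold wherever they were tested, and 0 called genes changed direction. Fewer genes tested account for the loss under the stricter filter, and the cause was not tested for the others. No paired analysis was possible because each time has 1 library, and for the same reason no library could be left out.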

Other observations

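The comparison left out 8090 genes under 10 CPM at both times. Of these, 101 were higher and 38 lower at 32 h than at 8 h PHS by more than 2-fold on the log2(CPM + 1) scale. Among the 6729 genes compared, 78 were higher and 147 lower. betaNACtes5 had 3.72 CPM at 32 h and 0.373 CPM at 8 h PHS, a change of 1.78. The immune peptide genes BomBc1 and BomS1 had 0.464 and 0.211 CPM at 32 h, against 7.84 and 5.04 CPM at 8 h PHS, and 0.779 and 0.0974 CPM with no HS.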
